A study of Mus musculus with 12 samples.

Results

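Krt16, Rgs4, Ltbp2 and Slc1a3 are genes whose RNA was higher both with TNFa alone and with BMP4 alone in MC3T3-E1 cells, an osteoblast precursor line from mouse calvaria. They are 4 of the 25124 entries in the deposited table, found there by gene symbol, and were chosen by their measured differences between each single factor and untreated cells. Those single differences are therefore given below as a description, with no test. The measurements that did not choose the genes are the 3 libraries of cells given both factors, and the question is how the level with both factors compares with the sum of the single differences. The series title links contacts between p65, a subunit of NF-kB, and Smad4 to the survival of BMP-treated cells under inflammation.

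Each of 4 groups held 3 polyA RNA libraries: TNFa+BMP4, TNFa, BMP4 and untreated cells. All cells were first held for 30 min in 2.5% serum. TNFa was given at 10 ng/mL for 30 min before BMP4, itself at 10 ng/mL for 3 h, although another label gives 3 h for each factor. Cells that did not receive a factor are otherwise the same line under the same serum, with no genetic change named; TNFa library titles also contain an unexplained p65. Replicate 1 of every group is labelled batch 1, and replicates 2 and 3 are labelled batch 2. The labels do not say whether replicates are separate cultures, and p-values here reflect the spread between these libraries alone, which may be technical.

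TNFa is an inflammatory cytokine that activates NF-kB and MAP kinases, while BMP4 signals through receptor-activated Smads that enter the nucleus with Smad4. The 4 genes belong to unrelated families. Krt16 encodes a type I keratin, an intermediate filament protein best known from wounded and inflamed skin. Rgs4 encodes a regulator of G protein signalling, which speeds GTP hydrolysis by Gi and Gq subunits and so shortens signals from G protein-coupled receptors. Ltbp2 encodes an extracellular matrix protein that associates with fibrillin microfibrils and, unlike its relatives, does not bind latent TGF-beta. Slc1a3 encodes the glutamate and aspartate transporter GLAST, known best from astrocytes.

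In the mm10 build all 4 lie on the minus strand of different chromosomes. Krt16 (NM_008470) spans positions 100246091 to 100248902 of chromosome 11, Rgs4 (NM_009062) 169741477 to 169747642 of chromosome 1, Ltbp2 (NM_001370743) 84783212 to 84876491 of chromosome 12 and Slc1a3 (NM_148938) 8634124 to 8710807 of chromosome 15. Their transcripts count 1555, 2934, 6690 and 4194 bases in that order. Promoter sequence from RefSeq (GRCm38.p6, the same assembly) was at hand for 3 of the 4, each with a start equal to that of the deposited transcript. The 250 bases before the start are shown as a description, with matches to the motifs named below in capitals:
Rgs4 (chr1:169747643-169747892, minus strand): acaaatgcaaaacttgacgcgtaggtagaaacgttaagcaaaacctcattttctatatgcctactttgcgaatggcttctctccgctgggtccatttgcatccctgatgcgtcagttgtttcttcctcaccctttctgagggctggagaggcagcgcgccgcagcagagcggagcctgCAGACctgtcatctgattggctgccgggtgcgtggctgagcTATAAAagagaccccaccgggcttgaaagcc
Ltbp2 (chr12:84876492-84876741, minus strand): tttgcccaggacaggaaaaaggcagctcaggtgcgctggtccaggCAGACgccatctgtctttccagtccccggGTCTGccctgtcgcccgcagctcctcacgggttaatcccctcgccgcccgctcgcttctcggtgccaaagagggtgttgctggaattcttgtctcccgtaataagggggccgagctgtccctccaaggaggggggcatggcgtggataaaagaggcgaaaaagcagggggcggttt
Slc1a3 (chr15:8710808-8711057, minus strand): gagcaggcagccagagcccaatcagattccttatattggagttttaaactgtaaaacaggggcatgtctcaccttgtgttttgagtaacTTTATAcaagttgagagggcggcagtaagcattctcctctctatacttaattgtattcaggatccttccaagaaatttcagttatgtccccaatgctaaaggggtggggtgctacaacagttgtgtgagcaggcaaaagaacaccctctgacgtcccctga

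Both strands of each window were searched for 5 motifs: the NF-kB consensus by its name, AP-1 (TGANTCA), the short Smad element (CAGAC), a BMP-linked Smad element (GGCGCC) and the TATA box (TATAAA). The Rgs4 window held 1 Smad match, 72 to 68 bases before the start, and 1 TATA match, 31 to 26 bases before it. Ltbp2 had 2 Smad matches, 205 to 201 and 176 to 172 bases before its start, the second on the opposite strand. In the Slc1a3 window the TATA letters occurred once, on the opposite strand, 161 to 156 bases before the start. None of the 3 windows held the NF-kB consensus, the AP-1 letters or GGCGCC. Over all 32851 RefSeq windows of this length, the CAGAC letters occurred in 42.2%, TATAAA in 12.4%, GGCGCC in 9.59%, the NF-kB consensus in 7.25% and TGANTCA in 6.75%. A match is a description of these letters, not a binding site.

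Values below are the log2 levels that the authors deposited, without adjustment for batch. Library totals ran from 13737314 to 15511104 tags, apart from 20579257 in TNFa+BMP4 replicate 2, and 7541 of the 11765 tested genes (64.1%) differed between the batches by limma. Of 9 osteoblast lineage markers, Col1a1, Col1a2, Sparc, Spp1 and Runx2 were high in every library. Runx2 was called lower with both factors (-0.39 ± 0.07) and with TNFa (-0.60 ± 0.07) by limma. Sp7 was low, at a mean log2 level of 5.29, and was called higher with BMP4 (0.80 ± 0.12), while Alpl, Bglap and Ibsp lay below the minimum level for testing. Of markers of other cells, 0 of 4 for neurons, 1 of 4 for leukocytes (Cd68) and 1 of 3 for endothelium (Pecam1, 0.39 ± 0.08 with both factors) could be tested. In these bulk samples, fewer cells that express a gene and less RNA per cell cannot be told apart.

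Krt16 stepped up with each factor and again with both. In TNFa+BMP4 cells its level was 11.98, 9.85 and 9.96 in replicates 1, 2 and 3. TNFa cells had 10.38, 8.35 and 8.33, BMP4 cells 10.41, 8.34 and 8.50, and untreated cells 8.15, 7.03 and 7.03. Within each batch the TNFa+BMP4 libraries were highest, the single-factor libraries close to each other and the untreated libraries lowest. Across batches the groups overlap, because replicate 1 of each single factor lay above TNFa+BMP4 replicates 2 and 3. Adjusted for batch, the difference from untreated cells was 3.19 ± 0.13 (log2 ± SE) with both factors, which is 9.12-fold, 1.62 ± 0.13 with TNFa and 1.68 ± 0.13 with BMP4.

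Rgs4 reached 9.18, 8.62 and 8.63 in TNFa+BMP4 replicates 1, 2 and 3. With TNFa the levels were 8.36, 7.70 and 7.96, with BMP4 8.36, 8.10 and 8.00, and in untreated cells 6.82, 6.69 and 6.61. All 3 TNFa+BMP4 libraries exceeded every single-factor library, and every single-factor library exceeded every untreated one. Its difference from untreated was 2.10 ± 0.09 with both factors, 1.30 ± 0.09 with TNFa and 1.44 ± 0.09 with BMP4. Either factor alone thus gave more than 0.5 of the log2 difference seen with both, as was also so for Slc1a3. For Krt16 the shares were close to 0.5. In batch 2 they fell below it, with 1.31 for TNFa and 1.39 for BMP4 beside 2.87 for both factors.

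Ltbp2 leaned more to TNFa. Its level was 12.52, 10.54 and 10.56 in TNFa+BMP4 replicates 1, 2 and 3. TNFa cells had 11.31, 9.69 and 9.81, BMP4 cells 11.06, 9.10 and 9.05, and untreated cells 9.78, 8.77 and 8.64. The order of the groups was the same in both batches, and the ranges of neighbouring groups overlapped across batches. The difference from untreated was 2.14 ± 0.12 with both factors, 1.20 ± 0.12 with TNFa and 0.68 ± 0.12 with BMP4. The authors' deposited table gives a BMP4 fold change of 0.77 (log2) for Ltbp2 with adjusted p = 0.0543, so the BMP4 rise of this gene did not reach 0.05 there.

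Slc1a3 had the smallest differences of the 4. TNFa+BMP4 replicates 1, 2 and 3 had 9.36, 9.71 and 9.62, TNFa replicates 8.93, 9.23 and 9.33, BMP4 replicates 8.82, 9.39 and 9.22, and untreated replicates 7.76, 8.93 and 8.75. Unlike the other 3, this gene was lower in batch 1 than in batch 2 in every group. Untreated replicate 1 was the lowest of all 12 libraries, and all TNFa+BMP4 libraries exceeded all untreated ones. TNFa and BMP4 replicates 1 were below untreated replicate 2, so these groups overlap across batches. Its difference from untreated was 1.08 ± 0.11 with both factors, 0.68 ± 0.11 with TNFa and 0.66 ± 0.11 with BMP4.

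**Figure D1:**
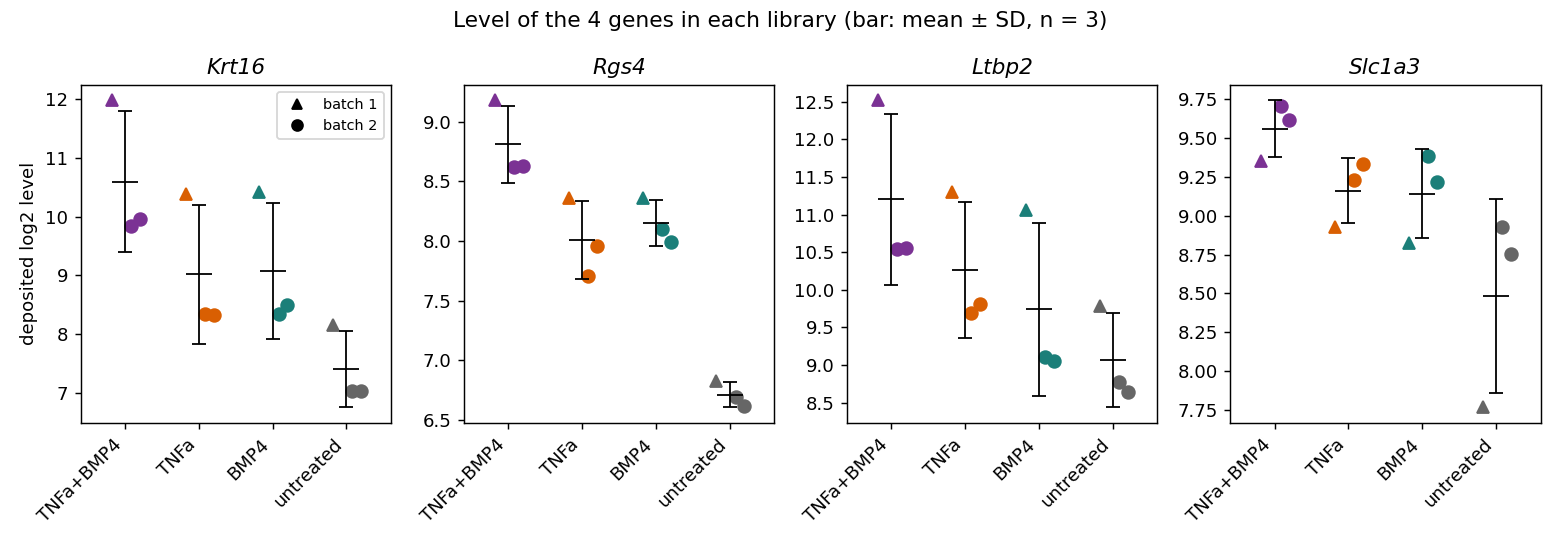
Deposited log2 level (vertical axis) of Krt16, Rgs4, Ltbp2 and Slc1a3 in each library by group, with triangles for batch 1, circles for batch 2 and bars for the mean ± SD of 3 libraries. Within each batch every gene was highest with both factors and lowest in untreated cells; Krt16 and Ltbp2 sat higher in batch 1 and Slc1a3 lower.

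Per kilobase of transcript, the untreated log2 level was 6.77 for Krt16, 6.41 for Slc1a3, 6.32 for Ltbp2 and 5.16 for Rgs4. All 4 were thus below the median of the tested genes, at the percentiles 40.4, 33.8, 32.1 and 16.6 in the same order. With both factors the per-kilobase log2 level was 9.96 for Krt16 (percentile 92.3), 8.46 for Ltbp2 (75.4), 7.49 for Slc1a3 (55.9) and 7.26 for Rgs4 (50.7). By these means over 3 libraries, Krt16 was the most abundant of the 4 with both factors and in untreated cells. The untreated order depended on batch. Before division by length, untreated Krt16 was at 8.15 in batch 1 and 7.03 in batch 2, and Slc1a3 at 7.76 and 8.84. In batch 2 untreated Slc1a3 was therefore above Krt16 per kilobase.

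Of the 11765 genes tested, 140 (1.19%) were called higher with TNFa and with BMP4 at a limma adjusted p under 0.05 in both, and 9.16% were called higher with TNFa and 6.75% with BMP4. Ranked by the smaller of their single differences, Krt16 stood in place 2, Rgs4 in place 3, Ltbp2 in place 5 and Slc1a3 in place 6 of the 140. Krt16, Rgs4, Ltbp2 and Slc1a3 were chosen by these same differences. Their calls and places here follow from that choice and are a description, not a test. The AP-1 gene Junb was first (1.64). Slc1a3 (0.66) was followed by Skil (0.62). Others of the first 10 were Skil, a repressor of Smad-driven transcription, the bZIP factor Maff, the stress-response gene Ier3 and the AP-1 subunit Fosl2.

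Cells given both factors exceeded the mean of the other 3 groups for all 4 genes. One test set TNFa+BMP4 against that mean, an estimate that shares no error with the single differences that chose the genes. That mean includes untreated cells, so a gene raised by each factor alone tends to a positive value even without further gain from both. The test therefore does not show an excess over either factor alone. Krt16 was higher by 2.09 ± 0.11 (limma adjusted p = 1.08e-11), Ltbp2 by 1.52 ± 0.10 (adjusted p = 4.58e-10), Rgs4 by 1.19 ± 0.07 (adjusted p = 1.62e-10) and Slc1a3 by 0.63 ± 0.09 (adjusted p = 3.09e-05). All 4 passed, beside 12.5% of all tested genes called higher and 11% lower in this comparison. Krt16 ranked 5 and Ltbp2 11 of the 11765 differences, Rgs4 25 and Slc1a3 129. Without a batch term only Rgs4 passed (limma adjusted p = 0.00184), while Krt16, Ltbp2 and Slc1a3 had adjusted p = 0.105, 0.204 and 0.169.

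Against TNFa alone, TNFa+BMP4 cells had more Krt16 by 1.57 ± 0.13 (limma adjusted p = 5.91e-08), more Ltbp2 by 0.94 ± 0.12 (adjusted p = 2.12e-05), more Rgs4 by 0.80 ± 0.09 (adjusted p = 3.04e-06) and more Slc1a3 by 0.40 ± 0.11 (adjusted p = 0.0252). All 4 were called, beside 5.47% of tested genes called higher and 6.2% lower. Against BMP4 alone the differences were 1.51 ± 0.13 for Krt16 (limma adjusted p = 3.12e-08), 1.47 ± 0.12 for Ltbp2 (adjusted p = 1.38e-08), 0.66 ± 0.09 for Rgs4 (adjusted p = 1.41e-05) and 0.42 ± 0.11 for Slc1a3 (adjusted p = 0.0131). Again all 4 were called, beside 8.78% of tested genes called higher and 7.41% lower. Of the 140 genes called higher with each single factor, these 4 among them, 55 were called higher than with each factor alone. Both comparisons use the single-factor libraries that helped to choose the genes, and that choice pushes these differences down. Without a batch term the differences were the same but none of the 4 was called, with limma adjusted p from 0.0935 (Rgs4) to 0.849 (Ltbp2) against TNFa and from 0.11 (Rgs4) to 0.673 (Slc1a3) against BMP4. With the batch term, the calls of Slc1a3 depended on single libraries. Against TNFa the call was lost without TNFa replicate 2 (adjusted p = 0.126) or 3 (0.0766) or without TNFa+BMP4 replicate 1 (0.177) or 2 (0.0538), and against BMP4 without TNFa+BMP4 replicate 1 (0.114) or BMP4 replicate 3 (0.0737), all by limma.

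The sum of the single differences was then set against the combined difference on the log2 scale, where a sum corresponds to multiplied folds. For Krt16 the combined difference of 3.19 was 96.8% of the sum, 3.29. For Rgs4 it was 76.6% of 2.74, for Slc1a3 80.4% of 1.34 and for Ltbp2 114% of 1.88. The departure from the sum was -0.10 ± 0.19 for Krt16 (95% interval -0.50 to 0.29, limma adjusted p = 0.999) and -0.64 ± 0.13 for Rgs4 (-0.90 to -0.38, adjusted p = 0.114). It was 0.26 ± 0.17 for Ltbp2 (-0.10 to 0.62, adjusted p = 0.993) and -0.26 ± 0.16 for Slc1a3 (-0.60 to 0.07, adjusted p = 0.993). None of the 4 passed, and genes chosen for high single differences are pushed towards a negative departure by that choice alone.

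Departures were rarely called anywhere: limma called 2 of the 11765 tested genes (0.017%), 0.0085% in each direction, and 560 (4.76%) had an unadjusted p under 0.05. The 2, named after their values were seen, were Nfkbie, an inhibitor of NF-kB (-0.49 ± 0.07), and the growth factor gene Pdgfb (1.02 ± 0.17). Rgs4 had the fourth lowest departure of all tested genes, and Ltbp2 stood at the percentile 98.8, Krt16 at 15.9 and Slc1a3 at 1.42. Among the 140 genes called higher with both single factors the median departure was -0.11, and 126 were negative, against a median of -0.0044 and 6120 of 11765 negative over all tested genes; this set was chosen in the same way as the 4 and carries the same push.

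**Figure D2:**
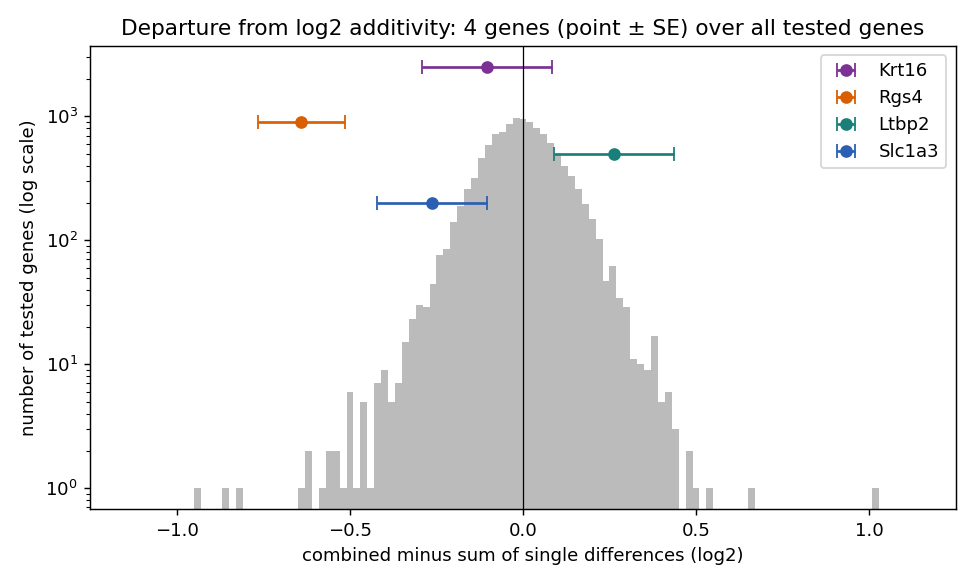
Combined difference minus the sum of single differences (horizontal axis, log2) for all tested genes as a histogram with a log vertical axis, with Krt16, Rgs4, Ltbp2 and Slc1a3 as points ± SE whose height carries no value. Rgs4 lies at -0.64, with 3 tested genes lower, and the other 3 lie between -0.26 and 0.26.

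On the linear scale Krt16 and Ltbp2 lay above the sum, and Rgs4 and Slc1a3 lay near it. There the level with both factors was divided by the level expected if the single increases simply added up, in each set of libraries with the same replicate number. For Krt16 the ratios were 1.67, 1.77 and 1.80, a mean of 1.75 ± 0.07 (SD, 3 sets). Ltbp2 had 1.55, 1.59 and 1.47, a mean of 1.53 ± 0.06. Both genes were above the linear sum in all sets. Rgs4 had 1.07, 1.04 and 0.97, with a mean of 1.03 ± 0.05, and Slc1a3 0.91, 1.07 and 0.97, with a mean of 0.98 ± 0.08. The ratios of Rgs4 and of Slc1a3 lie on both sides of 1, and each mean differs from 1 by less than its SD. No test was made on these ratios, which read the deposited values as log2 of a linear level although their transformation is not named, and the same-numbered sets share a batch but are not known to be paired. The ratios use the libraries that chose the genes, and that choice pushes them down. Where folds multiply, the ratio also grows with the size of the single differences. The ratios therefore do not show separate kinds of response.

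**Figure D3:**
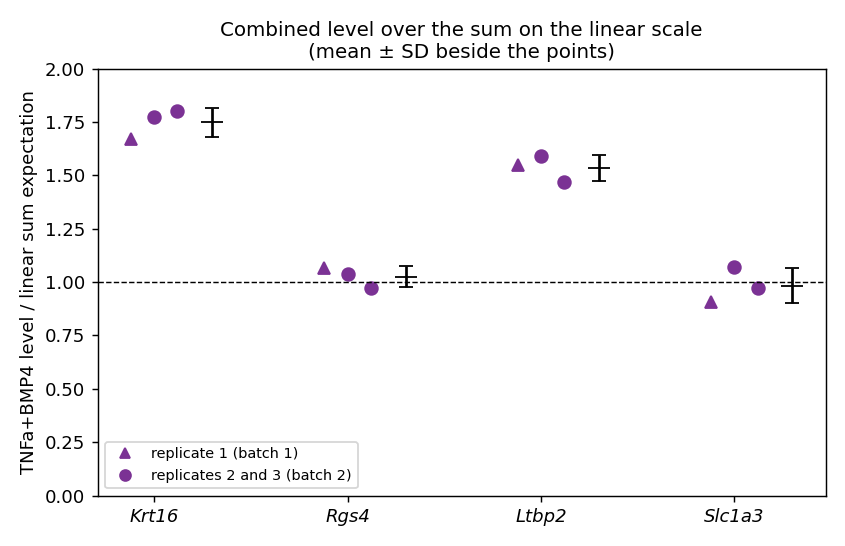
Level with TNFa+BMP4 divided by the linear sum of single increases (vertical axis, ratio) for each gene, with a triangle for replicate 1, circles for replicates 2 and 3, and the mean ± SD beside them. Krt16 (1.67 to 1.80) and Ltbp2 (1.47 to 1.59) lie above the dashed line at 1, and Rgs4 and Slc1a3 straddle it.

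The single differences of Krt16, Ltbp2 and Slc1a3 were larger in batch 1 than in batch 2. In batch 1, with 1 library a group, Krt16 differed from untreated by 3.82 with both factors, 2.23 with TNFa and 2.26 with BMP4, while in batch 2 the values were 2.87, 1.31 and 1.39. For Ltbp2 batch 1 gave 2.74, 1.52 and 1.28 in the same order, and batch 2 gave 1.85, 1.04 and 0.37. Slc1a3 had 1.59, 1.16 and 1.06 in batch 1, against 0.82, 0.44 and 0.46 in batch 2. Rgs4 varied least, with 2.36, 1.53 and 1.54 in batch 1 and 1.97, 1.18 and 1.39 in batch 2. All of these values were positive.

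The steps from a single factor to both were also taken within each batch. For Krt16 the step from TNFa to TNFa+BMP4 was 1.60 in batch 1 and 1.56 in batch 2, and the step from BMP4 was 1.56 and 1.48. For Ltbp2 the step from BMP4 was 1.46 and 1.47, but the step from TNFa was 1.21 and 0.80. Rgs4 had 0.82 and 0.79 from TNFa and 0.82 and 0.58 from BMP4, and Slc1a3 0.43 and 0.38 from TNFa and 0.53 and 0.36 from BMP4. A limma fit with group differences in each batch tested these batch gaps, with 4 residual degrees of freedom that all come from batch 2, so the single libraries of batch 1 are taken to vary like those of batch 2. It called 3 of the 4 genes for the TNFa difference and 3 for the BMP4 difference from untreated, beside 1.05% and 4.68% of tested genes. In both cases the exception was Rgs4 (adjusted p = 0.468 and 0.698). For the step from BMP4 to both it called 0 of the 4, with adjusted p from 0.49 to 0.966, beside 3.98%, and for the step from TNFa it called only Ltbp2 (adjusted p = 0.0276), beside 1.65%. The excess over the mean of the other groups was larger in batch 1 by 0.36 for Krt16 (limma adjusted p = 0.0423) and 0.43 for Ltbp2 (adjusted p = 0.00138), 2 of the 4, beside 3.85% of tested genes with a called gap. For both factors against untreated the gap was called in the same 3 as for TNFa, beside 5.78%.

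The departure from the log2 sum differed between batches beyond the threshold for Krt16 alone of the 4. There it was -0.66 in batch 1 and 0.17 in batch 2, a gap of -0.84 ± 0.18 (limma adjusted p = 0.0202), beside 0.382% of tested genes with a called gap. Ltbp2 had -0.07 and 0.43 (adjusted p of the gap 0.183) and Slc1a3 -0.63 and -0.08 (adjusted p = 0.265). Only Rgs4 had departures of similar size in both batches, -0.72 and -0.60 (adjusted p = 0.916). In a limma fit of batch 2 alone, Rgs4 (adjusted p = 0.0464) and Ltbp2 (adjusted p = 0.0416) were called, on opposite sides of the sum. That fit called 15 of the 11765 tested genes. Differences were also fitted in each batch and averaged, which gave the single libraries of batch 1 the same weight as batch 2. There Rgs4 (-0.66, limma adjusted p = 0.000437) and Slc1a3 (-0.36, adjusted p = 0.0317) were called, beside 224 genes over all tested. The choice of the 4 by their single differences pushes these departures down as well.

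Untreated replicate 1 moved several of these values. Without it the single differences of Krt16 became 1.31 with TNFa and 1.37 with BMP4, those of Ltbp2 0.95 and 0.42, and those of Slc1a3 0.45 and 0.43. The Slc1a3 differences and the BMP4 difference of Ltbp2 thus moved by over 1.5 times. Without this library the departure of Krt16 turned to 0.20, that of Ltbp2 became 0.52 and that of Slc1a3 -0.03, none called by limma. The cause was not tested.

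**Figure D4:**
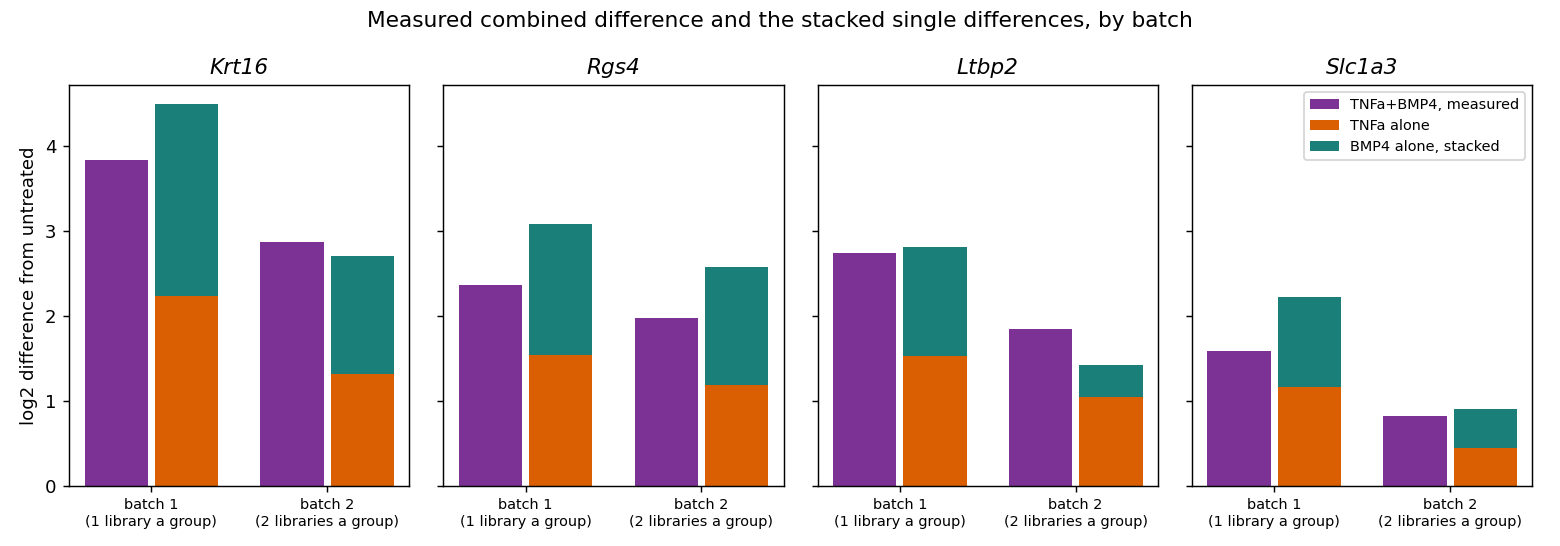
Log2 difference from untreated (vertical axis) in batch 1 and batch 2 for each gene, with the measured TNFa+BMP4 difference as a purple bar and the TNFa and BMP4 differences stacked beside it. The stack is taller than the purple bar for Rgs4 and Slc1a3 in both batches, and for Ltbp2 in batch 1 only. For Krt16 it is taller in batch 1 (TNFa+BMP4 3.82, stack 4.49) and shorter in batch 2 (TNFa+BMP4 2.87, stack 2.70).

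The authors' deposited table gives larger fold changes for the 4 genes than the fit on the deposited levels. Over all genes, combined differences on the deposited log2 scale rose with the authors' fold changes at a slope that was lower at lower levels. By mean level over the 12 libraries, the slope was 0.26 from 4 to 6 and 0.56 from 6 to 8. It was 0.81 from 8 to 10 and 0.92 from 10 up, and the cause was not tested. Rgs4, at a mean of 6.71 in untreated cells and 7.92 over the 12 libraries, lay lowest of the 4. In the authors' deposited table Krt16 has log2 fold changes of 3.97 with both factors, 2.19 with TNFa and 2.26 with BMP4. Rgs4 has 3.03, 2.04 and 2.22 in the same order. From those values the combined change minus the sum is -0.49 for Krt16, -1.22 for Rgs4, 0.24 for Ltbp2 and -0.35 for Slc1a3. The signs are those found on the deposited levels, and the values of Krt16, Rgs4 and Slc1a3 are farther from 0 while that of Ltbp2 is slightly nearer.

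The families of the 4 genes were then described from fixed lists, leaving out the 4 themselves. Of all tested genes, 16.8% were called higher and 14.4% lower with both factors against untreated, 9.16% and 6.32% with TNFa, and 6.75% and 5.47% with BMP4. Of 20 keratins only 4 were expressed enough to test. Krt14, the basal-layer keratin, was called higher with both factors (0.69 ± 0.08) and with BMP4 (0.66 ± 0.08) and had 0.06 ± 0.08 with TNFa. Of the 3 besides Krt16, 1 was called higher and 0 lower with both factors, 0 and 1 with TNFa, and 1 and 1 with BMP4. Krt10 had -0.19 ± 0.08 with both factors, not called, and was called lower with TNFa (-0.25 ± 0.08). Krt80 had -0.12 ± 0.10 with both factors, not called, and was called lower with BMP4 (-0.30 ± 0.10). Under TNFa alone Krt16 had 1.62 ± 0.13. The wound keratins Krt6a, Krt6b and Krt17 stayed below the minimum level in every library. Reads that match several close keratins may be split between them, and how they were handled is not given in the sources used here.

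Krt14 is also a keratinocyte marker, so the epithelial markers are given beside it. Of 6 such markers, 3 passed the minimum level. Krt14 was called higher with both factors, whereas Cdh1 (-0.61 ± 0.09) and Trp63 (-0.52 ± 0.08) were called lower. The summed linear level of the 6 ran from 13036 to 23401 in TNFa+BMP4 libraries, 9164 to 13186 with TNFa, 11710 to 26749 with BMP4 and 8335 to 13786 in untreated cells. Krt14, at a mean log2 level of 13.6, made up most of this sum, with Trp63 at 7.79 and Cdh1 at 5.21. Epcam was at 0 in every library. Of 4 astrocyte markers, set beside the astrocyte gene Slc1a3, Aqp4 was at 0, Gfap and Aldh1l1 were below 0 on the log2 scale, and S100b was called lower with both factors (-0.53 ± 0.10). The summed linear level of these 4 ran from 301 to 359 in TNFa+BMP4 libraries, 269 to 395 with TNFa, 366 to 609 with BMP4 and 373 to 708 in untreated cells. S100b, at a mean log2 level of 8.57, made up nearly all of this sum. The part of cells with these markers in the Krt16 and Slc1a3 values was not tested.

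In the RGS family 8 of 20 genes were tested. Of the 7 besides Rgs4, 4 were called higher and 0 lower with both factors, 3 and 0 with TNFa and 2 and 0 with BMP4, and their median difference with both factors was 0.23, against 0.0002 over all tested genes. Rgs17, which acts on Gi and Gz proteins, was called higher with both factors (0.57 ± 0.08), with TNFa (0.54 ± 0.08) and with BMP4 (0.26 ± 0.08). Rgs19 was called higher with both factors (0.57 ± 0.07) and with TNFa (0.39 ± 0.07), and had 0.15 ± 0.07 with BMP4. Rgs2 had -0.02 ± 0.08 with both factors and was not called. The close relatives Rgs5 and Rgs16 lay below the minimum level.

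Among microfibril and latent TGF-beta genes, 16 of 24 were tested. Of the 15 besides Ltbp2, 5 were called higher and 2 lower with both factors, 3 and 2 with TNFa, and 3 and 0 with BMP4, with a median of 0.14 for both factors. The crosslinking enzyme Loxl1 was called higher with both factors (0.63 ± 0.08), with TNFa (0.27 ± 0.08) and with BMP4 (0.52 ± 0.08). Emilin1, an elastic fibre glycoprotein, was called higher with both factors (0.54 ± 0.12), and had 0.21 ± 0.12 with TNFa and 0.12 ± 0.12 with BMP4. Of the other LTBP genes, Ltbp1, which binds latent TGF-beta, was called higher with both factors (0.48 ± 0.06) and with TNFa (0.31 ± 0.06), and Ltbp3 (-0.07 ± 0.07) and Ltbp4 (-0.09 ± 0.07) were not called.

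Of the glutamate list 12 of 20 genes were tested. Without Slc1a3, 3 of 11 were called higher and 3 lower with both factors, 1 and 1 with TNFa and 1 and 1 with BMP4, with a median of 0.0035 for both factors. Got1, the cytosolic aspartate aminotransferase, was called higher with both factors (0.43 ± 0.10), and Slc1a4, a neutral amino acid transporter of the same family, was called higher with both factors (0.42 ± 0.08) and with BMP4 (0.34 ± 0.08). Glul, which makes glutamine from glutamate, fell by 0.41 ± 0.07 with both factors. No gene of these lists had a departure from the log2 sum that limma called.

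**Figure D5:**
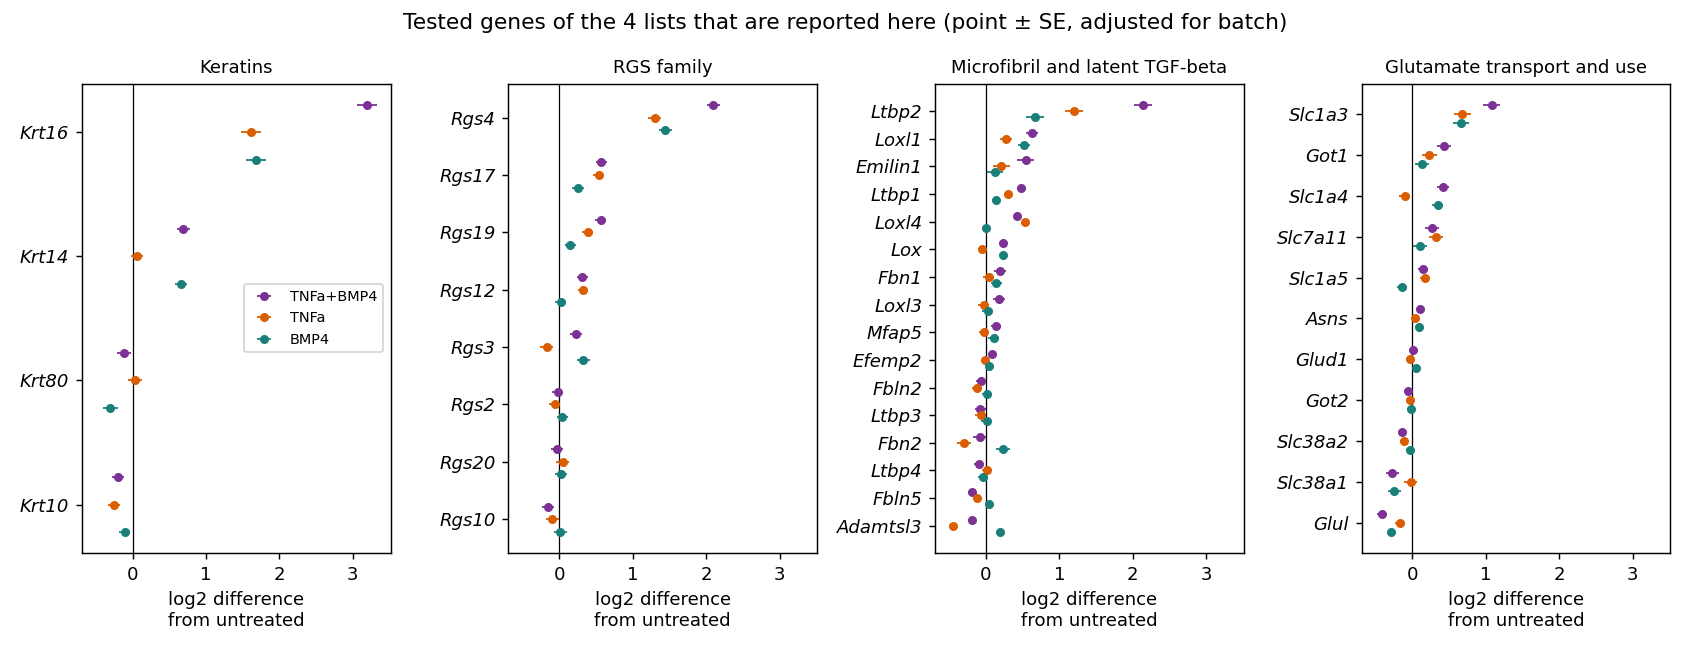
Log2 difference from untreated (horizontal axis, point ± SE, adjusted for batch) with TNFa+BMP4, TNFa and BMP4 for the tested genes of the 4 lists that are reported here. Krt16, Rgs4, Ltbp2 and Slc1a3 stand at the top of their lists, with the next gene at 0.69 in keratins, 0.57 in RGS genes, 0.63 in microfibril genes and 0.43 in glutamate genes. The 4 were chosen for their single differences and the lists were built around them, so these places are a description, not a test.

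The genes with the most similar course were found by Pearson correlation over the 12 libraries, with each gene centred within batch. The libraries share the same groups, so high values follow from any common group pattern. For Krt16 they were Arel1 (r = 0.995), a ubiquitin ligase gene, Clic4 (0.994) and Fosl2 (0.985). For Rgs4 they were the calcium channel gene Cacna1g (0.975), Junb (0.972) and Sh3kbp1 (0.970). Those of Ltbp2 included Rai14 (0.992) and the metalloproteinase inhibitor Timp1 (0.984). Slc1a3 was followed most closely by Fosl2 (0.979), Tsr1 (0.971) and Timp3 (0.970). Fosl2 was near both Krt16 and Slc1a3, at 1.00 ± 0.08 with both factors, 0.54 ± 0.08 with TNFa and 0.53 ± 0.08 with BMP4.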

How the data were processed

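Per the labels, polyA RNA of 12 MC3T3-E1 libraries was sequenced as 150-base read pairs. Trim Galore, HISAT2, HOMER and mm10 are listed in the submitters' processing notes, without versions. Per the file headers, the authors counted reads over exons with HOMER, raw and condensed to 1 transcript per gene, and tested pairs of groups with batch as a factor. The authors deposited log2 values per library (transformation not named), log2 fold changes, p-values and adjusted p-values; batch numbers in the header are swapped relative to the labels. Counts per gene were not used here, so depth is known only as tag totals.

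Limma 3.58.1 (R 4.3.3) was run on these log2 values with 4 groups plus batch, leaving 7 residual degrees of freedom and letting the prior variance follow the mean, on the 11765 genes with a mean log2 level of at least 4 (of 17701 not at 0 throughout). Benjamini-Hochberg adjusted p under 0.05 was a call, two-sided. The script was tested on simulated data. Members and lists were chosen with earlier results of these data known. Named genes were the 4 members, the first 10 by the smaller single difference, 3 most similar genes per member, and 2 per list with the largest combined difference; further family members were named after their values were seen. Alternatives covered batch, replicate block, normalization, filter, variance trend and left-out libraries. The fit in each batch was added after seeing the data. The TNFa against BMP4 contrast was not used. Some genes that the naming rule selects are not reported here.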

Additional observations from a re-analysis of the deposited data

How the results depend on the processing

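The excess of TNFa+BMP4 over the mean of the other groups kept its direction for all 4 genes in all 20 alternatives, and its call in all but the fit with no batch term, where Krt16 (2.09), Ltbp2 (1.52) and Slc1a3 (0.63) were no longer past the threshold. Leaving out 1 library gave 1.97 to 2.17 for Krt16, 1.11 to 1.22 for Rgs4, 1.37 to 1.58 for Ltbp2 and 0.52 to 0.70 for Slc1a3. Calls over all genes in this comparison were 2769, 426 with no batch term and 1388 to 2967 with 1 library left out (lowest without TNFa+BMP4 replicate 1).

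The departure from the log2 sum was less settled. For Krt16 it turned positive in batch 2 alone (0.17) and without untreated replicate 1 (0.20; range with 1 library left out -0.23 to 0.20). Rgs4 was called in batch 2 alone (-0.60) and with differences fitted in each batch (-0.66; -0.73 to -0.54 with 1 library left out). Ltbp2 was called in batch 2 alone (0.43; 0.12 without TNFa+BMP4 replicate 1 to 0.52 without untreated replicate 1) and Slc1a3 in the fit in each batch (-0.36; -0.40 without untreated replicate 2 to -0.03 without untreated replicate 1). The causes were not tested. Called departures over all genes numbered 2, 0 with no batch term or no filter, 1 with the replicate block or quantile normalization, 15 in batch 2 alone, 224 with differences fitted in each batch and 0 to 7 with 1 library left out.

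With no batch term the calls were also fewer against TNFa (105, otherwise 1373), BMP4 (345, otherwise 1905) and untreated (869, otherwise 3673), and for TNFa (383, otherwise 1822) and BMP4 (114, otherwise 1438) alone against untreated. For TNFa+BMP4 against TNFa and against BMP4 the differences of the 4 genes were unchanged in size but lost their calls, and so did Ltbp2 for TNFa+BMP4 against untreated (2.14, limma adjusted p = 0.0908). Fitted in each batch the counts were 2662 against TNFa and 3137 against BMP4, and 2816 for TNFa and 2931 for BMP4 alone. Against TNFa they were 906 with no filter, 752 without TNFa replicate 1, 909 without TNFa replicate 2 and 800 without TNFa+BMP4 replicate 1. For BMP4 alone they were 756 without untreated replicate 1 and 951 without BMP4 replicate 1. The Slc1a3 calls against TNFa and BMP4 were also lost with no filter (0.102 and 0.0686), and that against TNFa with no variance trend (adjusted p = 0.0577).

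Same-numbered libraries of batch 2 deviated together only weakly (r from 0.02 to 0.164 over 6 pairs of groups, all 6 positive), so the replicate number was not taken as a pairing. The replicate block changed no call of the 4 genes and left 1 departure called over all genes. Linear ratios ran from 1.72 to 1.79 for Krt16, 1.01 to 1.05 for Rgs4, 1.51 to 1.57 for Ltbp2 and 0.94 to 1.02 for Slc1a3 with 1 set left out. Differences on the deposited scale had a lower slope on the authors' fold changes at low levels, and Rgs4 was the lowest of the 4 in untreated cells. Whether the scale compresses low levels was not tested, and depth per gene is not known from these values.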

Other observations

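Values of other genes called higher with each single factor are given here; the differences between these genes were not tested. Junb, an AP-1 subunit gene, had 3.22 ± 0.09 with both factors, 2.02 ± 0.09 with TNFa and 1.64 ± 0.09 with BMP4, and a departure from the log2 sum of -0.44 ± 0.13 that was not called (limma adjusted p = 0.596). Skil leaned to BMP4, with 1.68 ± 0.13 for both factors, 0.62 ± 0.13 for TNFa and 1.21 ± 0.13 for BMP4. Maff leaned to TNFa, with 1.64 ± 0.14, 1.10 ± 0.14 and 0.54 ± 0.14 in the same order. Of the 140 genes called higher with both single factors, 55 were called higher in TNFa+BMP4 cells than with each factor alone by limma, as were 136 of all 11765 tested genes; the 140 were chosen on libraries that these comparisons share.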
